A study of Arabidopsis thaliana with 12 samples.

Results

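Warmth under shade is the difference in transcript levels between seedlings held in shade at 28 °C and seedlings held in shade at 20 °C. It was described over the 21316 genes, of 33602 listed, that had a log2 value of 0 or more in 3 or more of the 12 libraries of the study. The difference compares 6 of those libraries, 3 for each temperature, and the spread behind its tests was estimated from all 12. All seedlings were wild-type Columbia 0 of Arabidopsis thaliana, raised on agar and water at 22 °C in a 10 h photoperiod under lamps that gave 100 µmol m-2 s-1 at a red/far-red ratio of 1.1. At an age of 3 days they received 10 h of shade at 20 °C, shade at 28 °C, white light at 20 °C or white light at 28 °C on day 4, and whole seedlings were harvested after that day's light period. The light spectrum of the shade was not given in the sources used here. The labels number the replicates but do not say whether they were separate cultures, so p-values measure the spread between these samples, which may be technical.

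Plants sense neighbours by the loss of red relative to far-red light, which lowers the active form of phytochrome B. Warmth speeds the return of that photoreceptor to its inactive form, so both cues release the phytochrome-interacting factors (PIFs), basic helix-loop-helix proteins that switch on auxin synthesis and cell-wall loosening in elongating stems. Warmth also frees heat shock factors, which bind heat shock elements in front of chaperone genes. The comparison asks what warmth added in seedlings that were already shaded.

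Gene reads per shade library ranged from 3508180 to 4466280. Reads of 18S ribosomal RNA took 0.597 to 0.925% of the shade libraries at 20 °C and 1.25 to 2.35% of those at 28 °C, and all 4 ribosomal RNA genes tested rose. The part of residual ribosomal RNA in the differences below was not tested. The summed level of 23 root genes was 4019 to 4989 CPM, reads scaled to the library total, at 20 °C and 5364 to 5673 at 28 °C, and 4 of them rose. These were EXPA7, XTH13, XTH14 and PRP1, each of which lost its call without at least 3 of the single libraries. The sum of 15 stomatal genes was 269 to 282 CPM at 20 °C and 246 to 281 CPM at 28 °C. None of them passed, against 4.18% of all genes tested. Seed storage genes summed to 244 CPM in replicate 3 of shade at 20 °C and to between 12.8 and 48.4 CPM in the other 5 shade libraries. In such bulk samples, fewer cells of a type and less RNA per cell cannot be told apart.

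Warmth raised 467 genes and lowered 425 in shaded seedlings (limma, adjusted p under 0.05), which is 2.19% and 1.99% of the genes tested and 4.18% together. Counts of list members below are to be read against these shares. Differences are log2 values of shade at 28 °C minus shade at 20 °C, given with limma's standard error (SE, n = 3 per group). The median was 0.66 among the genes that rose, -0.60 among those that fell and 0.08 over all genes tested. A difference of at least 2-fold was passed by 115 risen and 65 fallen genes, and one of at least 4-fold by 36 and 16. Of those with at least 4-fold, 20 risen and 8 fallen genes had a mean log2 CPM of 1 or more in the shade libraries. The groups did not overlap for 865 of the 892 genes that passed. Without overlap, 3092 tested genes (14.5%) were higher and 1571 (7.37%) were lower at 28 °C.

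The balance between rises and falls depended on the scaling. Rises were 52.4% of the calls on the deposited values, 25.1% (239 rises and 713 falls) with each library's median subtracted, 39.4% after quantile normalization and 41.0% with totals that leave out ribosomal, organelle and photosynthesis genes. Median subtraction moved the median of all genes from 0.08 to -0.03. With a constant prior variance 184 genes passed, and 347 passed without the library of each group that held most 18S reads, an alternative added after seeing the data. It drops a library from every group at once, so calls lost to fewer libraries and to 18S content cannot be told apart. Leaving out only replicate 2 of shade at 20 °C, which held the fewest 18S reads of its group, left 402. Of 103 calls on genes named by a fixed rule, 59 were lost with the constant prior variance and 33 without the 18S-richest library of each group, and none changed direction. Among genes described below, the latter were HSP101, HSFA7A, BIP1, CNX1, GLK1, TOC1, UNE10, MYB75, IAA2, GH3.6, ABF3, HAI1, AKINBETA1, XTH13, XTH14 and PRP1. All of these were also lost with the constant prior variance. That setting further ended calls that included HSP22.0, HSA32, TIN1, CHLI1, SEP1, GWD1, AMY3, GI, FAD8, MYBL2, XTH15, EXPA7, EXPA8, XTH7, XTH9, XTH31, GA3OX1, GASA6 and NIA1.

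Genes of cytosolic and organellar small heat shock proteins, which hold unfolding proteins in solution, included the gene with the largest rise of all tested. HSP18.2 (AT5G59720) measured 1.49, 0.34 and 1.21 log2 CPM in shade at 20 °C against 7.18, 7.28 and 7.12 in shade at 28 °C. Its 3 warm libraries lay close together and far above the cool ones, a log2 difference of 6.18 ± 0.29 (limma adjusted p = 8.6e-14). HSP22.0 (AT4G10250), a small heat shock protein of the endoplasmic reticulum, measured 2.51, -0.80 and 0.13 at 20 °C against 3.93, 3.98 and 3.54 at 28 °C. The cool libraries spread widely, and the difference was 3.199 ± 0.63 (limma adjusted p = 0.0027). AT5G37670, another small heat shock protein gene, had 0, 4 and 0 reads at 20 °C and 13, 24 and 24 reads at 28 °C. Of 17 tested members of the small heat shock protein list 6 rose and 0 fell, against 2.19% and 1.99% of all genes, with a median difference of 1.01. The other members that rose were AT1G53540 by 2.29 ± 0.56, AT5G51440 by 1.17 ± 0.32 and AT2G19310 by 1.04 ± 0.17 (limma adjusted p = 0.016, 0.037 and 5.5e-04). Without the 18S-richest library of each group 5 members rose. The summed level of the list was 165.5, 93.4 and 139.9 CPM at 20 °C and 343.5, 360.8 and 342.2 CPM at 28 °C, so every warm library lay above every cool one. Among members that did not pass were HSP17.6II at 0.99 and HSP23.6-MITO at 1.68 (limma adjusted p = 0.31 and 0.061).

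Of 24 tested larger chaperones 13 rose and 0 fell, against 2.19% and 1.99% of all genes, with a median of 0.45. HSP70 (AT3G12580), a heat-inducible cytosolic HSP70, measured 5.49, 4.37 and 4.70 log2 CPM at 20 °C against 6.59, 6.69 and 6.46 at 28 °C, a difference of 1.73 ± 0.18. HSP90.1 (AT5G52640), the heat-inducible cytosolic HSP90, rose by 1.56 ± 0.18, and HOP3 (AT4G12400), a co-chaperone that links HSP70 and HSP90, by 1.304 ± 0.17 (limma adjusted p of 4.4e-07, 3.0e-06 and 3.1e-05 in this order). The disaggregase HSP101 (AT1G74310) rose by 0.96 ± 0.22. Its call was lost without replicate 1 of shade at 20 °C (0.77, limma adjusted p = 0.080) and without replicate 2 of shade at 28 °C (0.90, limma adjusted p = 0.060). The mitochondrial HSP70 gene mtHSC70-2 rose by 0.70 ± 0.11. The HSP90 genes HSP81-2 and HSP81-3 were also among the 13, and as close copies their reads may be split between them. Without the 18S-richest library of each group, 5 of the 24 passed.

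Of 20 tested heat shock and related factors 4 rose (20%, against 2.19% of all genes) and 0 fell, with a median of 0.17. They were the repressor-class factors HSFB2A (AT5G62020) at 2.28 ± 0.38 and HSFB1 (AT4G36990) at 0.95 ± 0.11, the coactivator MBF1C (AT3G24500) at 1.55 ± 0.20 and HSFA7A (AT3G51910) at 1.13 ± 0.27. The HSFA7A call was lost without replicate 2 of shade at 20 °C (0.98) and without replicate 2 of shade at 28 °C (1.10). MBF1C measured 3.28, 3.22 and 3.53 at 20 °C against 5.27, 4.78 and 4.64 at 28 °C. HSFA2 (AT2G26150), the factor that sustains acquired thermotolerance, had 15 reads in the 3 cool libraries together and 8 in the warm ones and did not pass. DREB2A (AT5G05410), a drought and heat factor, had a difference of 0.88 ± 0.26 that missed the threshold (limma adjusted p = 0.052). Of 14 chaperone genes of the endoplasmic reticulum 2 rose, or 14.3% against 2.19% of all genes. They were the luminal HSP70 BIP1, by 0.49 ± 0.10, and the calnexin CNX1, by 0.40 ± 0.10. CNX1 lost its call without any of 4 single libraries, and 0 of the 14 passed without the 18S-richest libraries.

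Among the 10 largest rises of genes past the filters on level, several have known links to heat or protein folding. GOLS1 (AT2G47180), which makes galactinol for raffinose, measured 0.93, 1.28 and 2.32 at 20 °C against 5.25, 4.95 and 4.97 at 28 °C, a difference of 3.55 ± 0.33 (limma adjusted p = 9.9e-08). HSA32 (AT4G21320), needed to keep acquired thermotolerance, rose by 2.66 ± 0.40, and TIN1 (AT5G64510), induced by the inhibitor tunicamycin, by 2.72 ± 0.54. AT1G72660, annotated as a nucleoside triphosphate hydrolase, rose by 2.84 ± 0.42. Outside those 10, the cytosolic ascorbate peroxidase gene APX2 (AT3G09640) had no read at 20 °C and 23, 15 and 12 reads at 28 °C. It was at least 18.7-fold higher, taking 3 reads over the whole group as the floor. SR45A (AT1G07350), a splicing factor, rose from 3.94, 4.70 and 4.54 to 6.07, 5.87 and 5.81, by 1.53 ± 0.17.

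**Figure D1:**
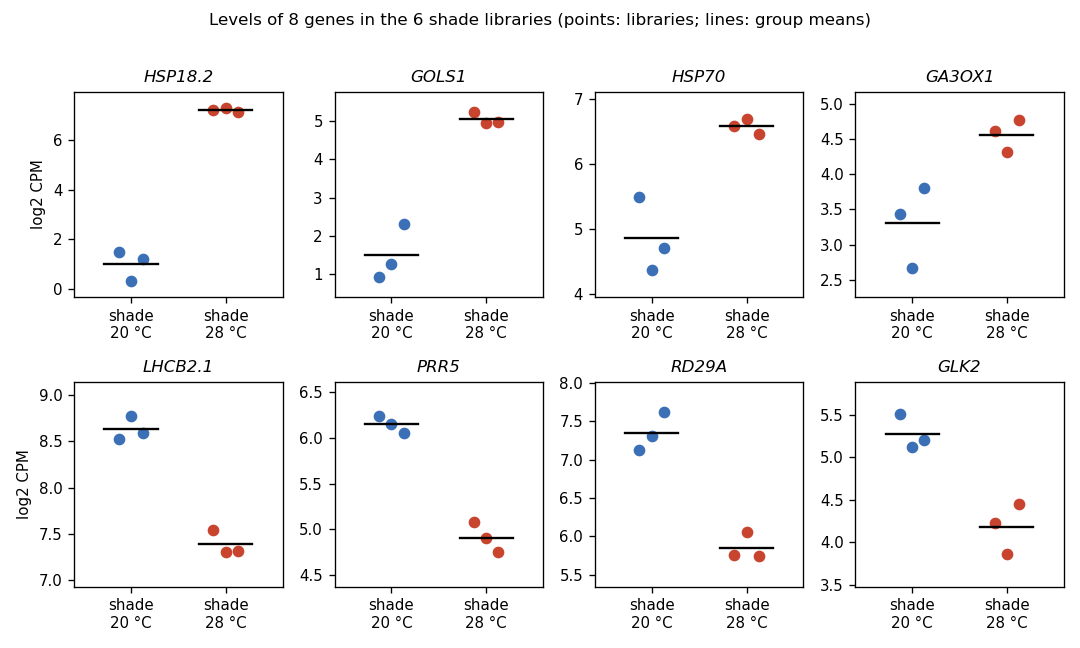
Log2 CPM of 8 genes in the 6 shade libraries, with 1 point per library and lines at the group means. In HSP18.2, GOLS1, HSP70 and GA3OX1 every library at 28 °C lies above every library at 20 °C, and in LHCB2.1, PRR5, RD29A and GLK2 every one lies below.

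The DNA in front of the risen genes was searched for heat shock elements, defined as alternating GAA and TTC triplets, 3 in all, with any 2 bases between neighbours, on either strand. Within 500 bases before the first annotated coding base (RefSeq annotation of TAIR10.1, a stretch that includes any 5' leader), 278 of 20461 tested genes with such a window held a match, or 1.36%. Among genes that rose the share was 32 of 439, or 7.29%, among those that rose at least 2-fold 13 of 102, or 12.7%, and among those that fell 4 of 411, or 0.973%. In the small heat shock protein list 4 of 17 windows held one, among the larger chaperones 8 of 24 and among the heat shock and related factors 4 of 20. The risen genes MBF1C, HSFB1, HSP101 and mtHSC70-2 held none, while HSFA2 held one and did not pass. This window was chosen after seeing the data, once windows at annotated gene starts had been searched and those starts doubted, and the shares depended strongly on it. In the 300 bases before the annotated gene start they were 1.51% of risen, 0.239% of fallen and 0.492% of all genes. Sites of 6 risen genes with a match are shown because they belong to 3 of the strongest rises and to chaperone and factor genes described above. Each is printed on the strand of its gene with the element in capitals and 8 bases on both sides.
HSP18.2: caacaaacGAAACTTCCTGAAatgccaag
HSP22.0: aaagatatTTCAAGAAACTTCttcattct
GOLS1: gtcccactTTCCAGAACTTTCacggtttc
HSP70: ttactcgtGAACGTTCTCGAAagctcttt
HSP90.1: aacgaaaaGAACTTTCTGGAAttcgtttg
HSFA7A: ttacgaagTTCCAGAAGTTTCgactattc
The stretches lie in TAIR10.1 at chr5:24062388-24062416 (plus strand), chr4:6370379-6370407 (plus), chr2:19370558-19370586 (minus), chr3:3993846-3993874 (minus), chr5:21352254-21352282 (plus) and chr3:19264941-19264969 (plus) in this order. The elements begin between 150 and 345 bases before the coding start, and HSFA7A holds a second one 295 bases before it. A match describes these letters only and does not show that a factor binds there.

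Of 48 tested nuclear genes for antenna proteins, photosystem subunits and electron carriers 35 fell and 0 rose, against 1.99% and 2.19% of all genes, with a median of -0.52, and all 48 differences were negative. Without the 18S-richest libraries 18 fell and 0 rose. Reads of the list took 5.41 to 6.39% of each shade library at 20 °C and 3.38 to 4.37% at 28 °C. LHCB2.1 (AT2G05100), a trimeric antenna protein of photosystem II, measured 8.53, 8.77 and 8.59 log2 CPM at 20 °C against 7.54, 7.30 and 7.32 at 28 °C. The groups were clearly apart, and the difference was -1.24 ± 0.10 (limma adjusted p = 6.0e-09). LHCB1.1 (AT1G29920) and LHCB1.4 (AT2G34430) differed by -1.78 ± 0.15 and -1.56 ± 0.12. The LHCB1 and LHCB2 genes have near-identical copies, so the level of a single copy is uncertain. With medians subtracted 40 fell.

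Of 22 Calvin cycle genes 14 fell and 0 rose (median -0.47), and 6 fell without the 18S-richest libraries. SBPASE (AT3G55800), sedoheptulose bisphosphatase, measured 9.45, 9.54 and 9.32 at 20 °C against 8.82, 8.76 and 8.91 at 28 °C, a difference of -0.61 ± 0.09. The transketolase TKL1 fell by 0.67 ± 0.10 and the glyceraldehyde phosphate dehydrogenase subunit GAPA2 by 0.67 ± 0.10 on the log2 scale. In chlorophyll synthesis 4 of 18 genes fell and 0 rose (median -0.31), and with medians subtracted 9 fell. CRD1 (AT3G56940), the cyclase of the pathway, differed by -0.68 ± 0.09, and CHLH and CHLI1, subunits of magnesium chelatase, by -0.60 ± 0.10 and -0.48 ± 0.10. The greening factors GLK1 (AT2G20570) and GLK2 (AT5G44190), which activate antenna and chlorophyll genes, differed by -0.97 ± 0.17 and -1.10 ± 0.17. GLK2 measured 5.51, 5.12 and 5.21 at 20 °C against 4.22, 3.86 and 4.45 at 28 °C. Of 5 photoprotective genes of the ELIP and one-helix family 3 fell, among them SEP1 (AT4G34190) by 0.55 ± 0.11 on the log2 scale.

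Of 15 starch breakdown genes 6 fell and 0 rose, against 1.99% and 2.19% of all genes, with a median of -0.25. The chloroplast beta-amylase BAM3 (AT4G17090) measured 6.52, 6.57 and 6.28 at 20 °C against 5.28, 4.62 and 4.97 at 28 °C, a difference of -1.496 ± 0.17 (limma adjusted p = 3.0e-06). The cytosolic phosphorylase PHS2 (AT3G46970) differed by -0.81 ± 0.10, the glucan water dikinase GWD1 (AT1G10760) by -0.52 ± 0.10 and the amylase AMY3 by -0.51 ± 0.10.

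Of 27 tested circadian clock genes 5 fell and 0 rose, against 1.99% and 2.19% of all genes. The median was -0.20, and 9 differences were positive. PRR5 (AT5G24470), a pseudo-response regulator that represses the morning genes, measured 6.24, 6.15 and 6.05 log2 CPM at 20 °C against 5.08, 4.90 and 4.75 at 28 °C, a difference of -1.24 ± 0.13 (limma adjusted p = 4.4e-07). ELF4 (AT2G40080), a member of the evening complex, differed by -0.85 ± 0.11, and FKF1 (AT1G68050), a blue-light F-box protein, by -0.75 ± 0.12. GI (AT1G22770), the partner of FKF1, differed by -0.50 ± 0.10. TOC1 (AT5G61380) differed by -0.37 ± 0.09, a call lost without replicate 1 of shade at 20 °C (-0.34) and without replicate 2 or 3 of shade at 28 °C (-0.33 and -0.37). All libraries were taken at the same time of day, so a change in level and a shift in phase cannot be told apart. The morning gene CCA1, with levels between -0.31 and 1.23 in the 6 libraries, and PRR7, with a difference of -0.20, did not pass.

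The evening element, AAAATATCT, which the morning factors CCA1 and LHY bind, was searched in the same windows on both strands. It was found in 48 of 411 genes that fell, or 11.7%, in 15 of 439 that rose, or 3.42%, and in 4.0% of all genes with a window. In the 300 bases before the gene start the shares were 9.81%, 3.02% and 2.9% in this order. In the clock list 7 of 27 windows held the element. Those of ELF4 and GI, which fell, held none, while PRR9, LUX, BOA and JMJD5 held it and did not pass. Matches in 3 fallen clock genes are shown because these genes lead the clock list or belong to the core clock. Here too the strand is that of the gene, and the element, read on either strand, is in capitals.
PRR5 site 1: attctactAGATATTTTttcaaatc
PRR5 site 2: ttttttctAGATATTTTcttttctc
FKF1 site 1: gtttcacaAAAATATCTattatttg
FKF1 site 2: agtaggctAGATATTTTctcggaat
FKF1 site 3: ctaagccaAGATATTTTaaaagttt
TOC1: ctgtgattAGATATTTTttttgtgt
In TAIR10.1 the PRR5 stretches lie at chr5:8358822-8358846 and chr5:8358717-8358741 (minus strand), the FKF1 stretches at chr1:25508258-25508282, chr1:25508445-25508469 and chr1:25508631-25508655 (plus), and that of TOC1 at chr5:24675493-24675517 (plus). The G-box, CACGTG, a core site of PIFs and other factors, was found in 19.5% of the fallen genes, 11.2% of the risen genes and 10.3% of all. Before the gene start the shares were 10.5%, 7.97% and 7.9%. Genes that fell at least 2-fold held it in 6 of 58 windows, or 10.3%, the share of all genes. Before the gene start they held it in 5.08%, below the share of all genes. In the photosynthesis list 22 of 48 windows held it.

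**Figure D2:**
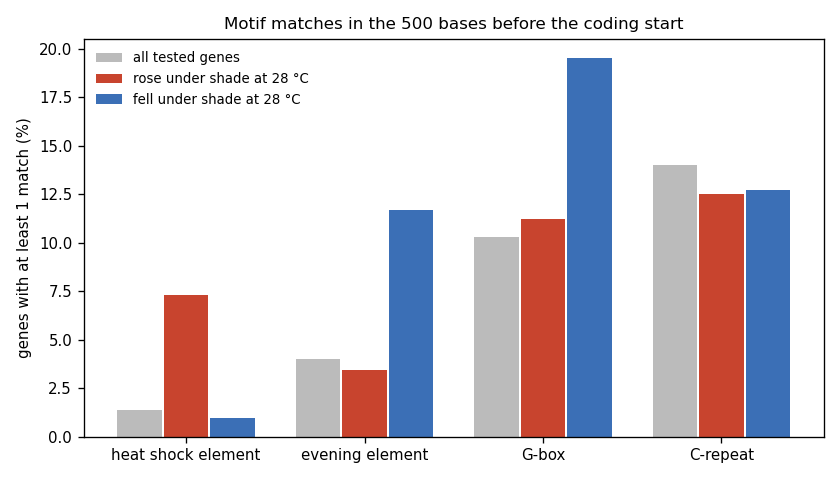
Share of genes with at least 1 match to 4 motifs in the 500 bases before the coding start, for all tested genes (grey), genes that rose (red) and genes that fell (blue) under shade at 28 °C. The heat shock element was found in 7.29% of risen genes against 1.36% of all, and the evening element in 11.7% of fallen genes against 4.0%.

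Of 17 tested cold-responsive genes 2 fell and 0 rose under shade, against 1.99% and 2.19% of all genes, with a median of 0.04. RD29A (AT5G52310), induced by cold and drought, measured 7.13, 7.31 and 7.63 at 20 °C against 5.75, 6.06 and 5.74 at 28 °C, a difference of -1.501 ± 0.14 (limma adjusted p = 7.2e-08). COR413-PM1 (AT2G15970), a membrane protein of cold-treated plants, differed by -0.60 ± 0.10. KIN1 and KIN2, cold-induced genes that are close copies of each other, differed by 0.01 (95% interval -0.28 to 0.30) and 0.06 (95% interval -0.17 to 0.28). RD29A holds 4 matches to the C-repeat, ACCGAC or GCCGAC, the site of the cold factors CBF, within its 500 bases. The one that starts 246 bases before the coding start, at chr5:21240675-21240696 of TAIR10.1 on the plus strand, is shown because RD29A had the larger fall of the cold list.
RD29A: gatatactACCGACatgagttc
The C-repeat was found in 12.7% of fallen genes, 12.5% of risen genes and 14.0% of all. Of 10 fatty acid desaturases 4 fell and 1 rose, with a median of -0.31. FAD8 (AT5G05580), a plastid desaturase that is cold-induced, fell from 6.04, 6.09 and 5.88 to 5.45, 4.92 and 4.80, by 0.95 ± 0.18 on the log2 scale. FAD2, the desaturase of the endoplasmic reticulum, rose by 0.34 ± 0.10. With medians subtracted 0 desaturases rose and 5 fell. Without the 18S-richest libraries, 1 desaturase fell and 0 rose.

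Of 26 flavonoid genes 4 fell and 0 rose, against 1.99% and 2.19% of all genes, with a median of -0.37. The regulator MYB75 (AT1G56650), which activates anthocyanin synthesis, had 8, 11 and 18 reads at 20 °C and 0, 3 and 5 at 28 °C. The anthocyanin acyltransferase gene 5MAT (AT3G29590) had 2, 9 and 4 reads at 20 °C and none at 28 °C, at least 4.47-fold lower taking 3 reads over the whole group as the floor. The calls of MYB75 and MYBL2 were lost without any of 4 and 3 single libraries, and that of 5MAT without replicate 2 of shade at 20 °C (-2.59, limma adjusted p = 0.056). MYB75 and 5MAT also did not pass with weights by read level (limma adjusted p = 0.23 and 0.13). Nor did they pass with only the 6 shade libraries (limma adjusted p = 0.13 and 0.17).

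No phytochrome or PIF gene described here passed the test except the PIF family member UNE10. PHYB (AT2G18790), encoding the phytochrome that senses shade and warmth, had a difference of -0.13 (95% interval -0.37 to 0.11). PIF4 (AT2G43010), the main PIF of warmth responses, measured 5.82, 5.72 and 5.96 at 20 °C against 5.88, 5.50 and 5.75 at 28 °C. Its groups overlapped, with a difference of -0.12 (95% interval -0.40 to 0.15). PIF5 and PIF7 differed by -0.37 (95% interval -0.74 to -0.01) and -0.65 (95% interval -1.18 to -0.13), with intervals below 0, and neither passed over all genes (limma adjusted p = 0.29 and 0.17). Of 14 shade markers 1 rose and 0 fell, or 7.14% called against 4.18% of all genes. The homeobox gene ATHB2 (AT4G16780), induced within minutes of shade, differed by 0.00 (95% interval -0.49 to 0.49), the PIF-binding repressor HFR1 by -0.25 and PIL1 by -0.28. The marker that rose was XTH15 (AT4G14130), a xyloglucan-modifying enzyme, from 8.47, 8.21 and 8.88 to 9.41, 9.20 and 9.45, by 0.83 ± 0.19. It no longer passed on leaving out cool replicate 1 (0.81), cool replicate 2 (0.68) or warm replicate 3 (0.79). With a constant or a robust prior variance XTH15 did not pass either (limma adjusted p = 0.23 and 0.22). Of 30 light signalling genes 4 fell and 0 rose, or 13.3% called against 4.18% of all genes. These were GLK1, GLK2, UNE10 and SPA1 (AT2G46340), a partner of the ubiquitin ligase COP1. SPA1 fell by 0.91 ± 0.15 on the log2 scale. UNE10 lost its call without any of 4 single libraries.

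Some growth genes changed. Of 34 expansins and xyloglucan endotransglucosylases 7 rose and 1 fell, against 2.19% and 1.99% of all genes, with a median of 0.19. EXPA8 (AT2G40610), an expansin, measured 7.03, 6.91 and 7.08 at 20 °C against 7.87, 7.61 and 7.50 at 28 °C, a difference of 0.65 ± 0.12. The xyloglucan enzymes XTH7 and XTH31 rose by 0.73 ± 0.13 and 0.69 ± 0.12. XTH9 (AT4G03210) differed by -0.47 ± 0.10, a call lost without replicate 2 of shade at 20 °C (-0.37, limma adjusted p = 0.078). In the gibberellin list 3 of 25 rose and 0 fell, or 12% called against 4.18% of all genes. GA3OX1 (AT1G15550), which makes the active hormone, measured 3.44, 2.67 and 3.81 at 20 °C against 4.61, 4.32 and 4.76 at 28 °C, a difference of 1.26 ± 0.23 (limma adjusted p = 0.0015). The gibberellin-regulated peptide genes GASA4 (AT5G15230) and GASA6 (AT1G74670) rose by 0.66 ± 0.10 and 0.66 ± 0.12.

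Of 38 auxin response genes 2 rose and 0 fell, or 5.26% called, near the 4.18% of all genes tested. The median was 0.27 against 0.08 for all genes. IAA2 (AT3G23030), an Aux/IAA repressor, rose by 0.64 ± 0.13, a call lost without replicate 2 of shade at 20 °C (0.48, limma adjusted p = 0.064), and the auxin-conjugating enzyme GH3.6 rose by 0.41 ± 0.11, a call lost without any of 5 single libraries. IAA29 and IAA19, both PIF targets, had differences of 0.69 (95% interval 0.08 to 1.296) and 0.47 (95% interval 0.11 to 0.84) and did not pass. Of 19 auxin synthesis and transport genes none passed, and YUC8 (AT4G28720), the flavin monooxygenase that makes auxin in warmth, had a difference of -0.01 (95% interval -0.42 to 0.39). None of 16 brassinosteroid, 17 cytokinin or 22 ethylene genes passed. Of 24 abscisic acid genes 2 rose and 1 fell, against 2.19% and 1.99% of all genes, with a median of 0.07. ABA1 (AT5G67030), zeaxanthin epoxidase, differed by -0.77 ± 0.11, and the factor ABF3 rose by 0.47 ± 0.11. The phosphatase gene HAI1 (AT5G59220) had 2 reads in the cool libraries together and 37 in the warm ones. The calls of ABF3 and HAI1 were lost without any of 2 and 4 single libraries.

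**Figure D3:**
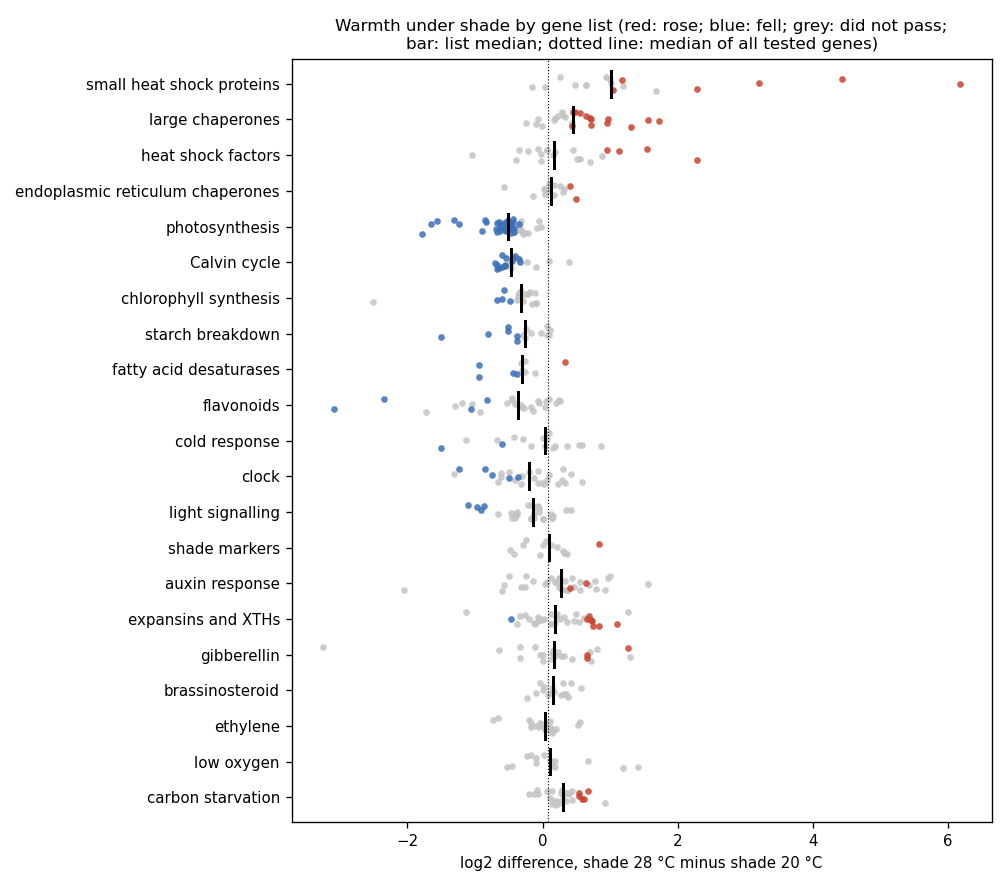
Log2 difference of shade at 28 °C minus shade at 20 °C for each tested member of 21 gene lists (red rose, blue fell, grey did not pass), with the list median as a bar and the median of all tested genes, 0.08, as a dotted line. Small heat shock proteins reach 6.18, all photosynthesis genes lie below 0, and no ethylene, brassinosteroid or low-oxygen gene passed.

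Of 28 genes of carbon starvation 5 rose and 0 fell, against 2.19% and 1.99% of all genes, with a median of 0.30 and 24 positive differences, and 1 rose with medians subtracted. They included AKINBETA1, a subunit of the energy-sensing kinase SnRK1, at 0.61 ± 0.14, a call lost without replicate 2 of shade at 20 °C (0.44) and without replicate 3 of shade at 28 °C (0.57). Of 11 nitrogen genes the nitrate reductase NIA1 (AT1G77760) rose by 1.46 ± 0.34, a call lost without replicate 1 of shade at 20 °C (1.41) and without replicate 2 of shade at 28 °C (1.10). The NIA1 call was also lost with a constant and with a robust prior variance (limma adjusted p = 0.22 for both). The immune receptor gene SNC1 (AT4G16890) measured 6.74, 6.80 and 6.61 at 20 °C against 5.87, 5.94 and 5.74 at 28 °C, a difference of -0.87 ± 0.13. AOC2 (AT3G25770), allene oxide cyclase of jasmonate synthesis, fell from 5.97, 5.72 and 5.52 to 4.39, 4.07 and 4.67, by 1.36 ± 0.16 on the log2 scale (limma adjusted p = 3.0e-06). SNC1 was 1 of 14 tested salicylate genes and AOC2 1 of 21 jasmonate genes, and no other member of these lists passed. These are 7.14% and 4.76% called, against 4.18% of all genes. None of 30 cell cycle, 10 flowering or 3 shoot apex genes passed.

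Among the 10 largest falls of genes past the filters on level, PP2-A5 (AT1G65390), a phloem protein gene, measured 3.11, 2.99 and 2.75 at 20 °C against 0.36, 0.16 and 0.46 at 28 °C. It differed by -2.62 ± 0.38. AT4G01390 and AT5G59130 differed by -2.08 ± 0.30 and -2.01 ± 0.29. The chloroplast genome genes ATCG00930 and ATCG01200 shared identical reads, as did ATCG00940 and ATCG01190, and they differed by -3.08 ± 0.59 and -2.47 ± 0.49. Libraries were made from polyadenylated RNA, which most chloroplast transcripts lack, so the meaning of these levels is uncertain.

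The warmth difference was then set beside that in white light, where 2310 genes rose (10.8%) and 1023 fell (4.8%), or 15.6% together. The contrasts have no library in common. Of the genes that rose under shade, 322 also rose in white light, which is 69.0% of the shade rises and 13.9% of the white light rises. Of those that fell, 311 also fell in white light, or 73.2% and 30.4%. Another 145 risen and 113 fallen genes did not pass in white light, and 1 fallen gene rose there. Whether the warmth difference itself changed with light was tested by the interaction, (shade 28 °C minus shade 20 °C) minus (white light 28 °C minus white light 20 °C). It passed for 95 genes, 0.446% of those tested, with 27 (0.127%) more positive and 68 (0.319%) more negative under shade. Of the 892 genes called under shade 22 were among the 95, and 0 risen genes had a larger rise under shade that passed. A constant prior variance left 6 interaction calls, and 42 passed when the 18S-richest library of each group was dropped.

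HSP18.2, HSP70 and HSP90.1 did not pass the interaction. HSP18.2 rose by 6.46 ± 0.29 in white light and the differences between lights were -0.28 for HSP18.2, -0.09 for HSP70 and -0.40 for HSP90.1 (limma adjusted p = 0.87, 0.93 and 0.64). PRR5, ELF4 and GLK2 did not pass it either. A p that misses the threshold does not show that the responses were alike. In the small heat shock protein list 1 of 17 tested members passed, against 0.446% of all genes. This was AT4G21870, with an interaction of -0.81, a call lost without any of 9 of the 12 single libraries.

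**Figure D4:**
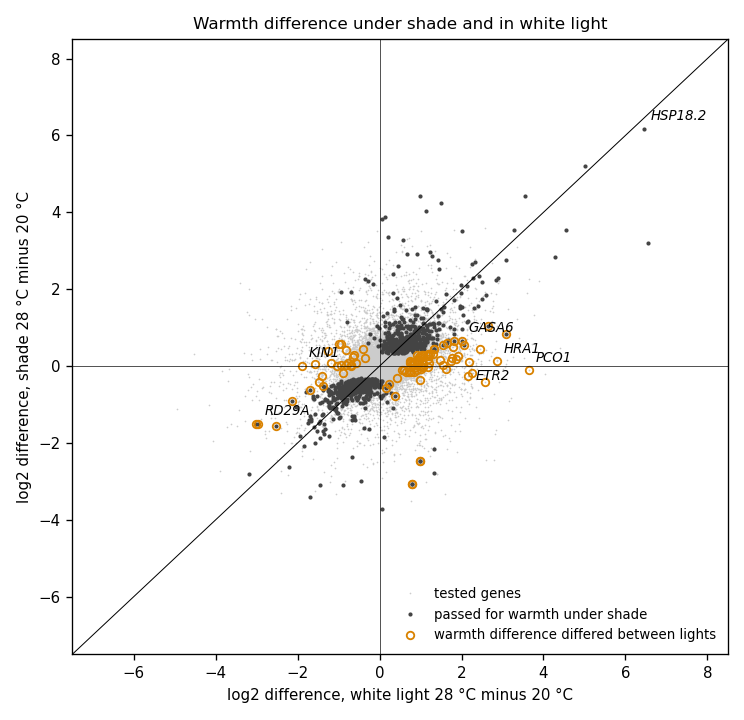
Warmth difference in white light (horizontal) and under shade (vertical), both log2, for 21316 tested genes, with genes that passed under shade in black and the 95 genes that passed the interaction circled. HSP18.2 lies near the line of equal differences, while PCO1, HRA1 and ETR2 lie far to the right near 0 under shade and KIN1 to the left near 0.

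In 4 cold-responsive genes the fall with warmth was smaller or near 0 under shade. In white light 10 of the 17 tested members fell and 0 rose with warmth, against 4.8% and 10.8% of all genes, with a median of -0.92. The interaction passed with a more positive value under shade for 4 members, against 0.127% of all genes. KIN1 measured 6.29, 6.09 and 6.52 in the 20 °C and 4.55, 4.57 and 4.09 in the 28 °C libraries of white light, against 5.55, 5.67 and 5.57 in the 20 °C and 5.70, 5.57 and 5.55 in the 28 °C libraries of shade. The interaction was 1.91 ± 0.20 for KIN1, 1.63 ± 0.16 for KIN2 and 1.06 ± 0.20 for COR414-TM1 (limma adjusted p of 5.2e-06, 1.3e-06 and 0.0087). RD29A fell under both lights, by 1.501 on the log2 scale under shade and with a difference of -2.98 in white light, and its interaction was 1.48 ± 0.19. BAM3 differed by -3.03 ± 0.17 in white light and by -1.496 under shade, with an interaction of 1.53 ± 0.24. LHCB1.4 was the photosynthesis gene that passed, with an interaction of 0.97 ± 0.18. The COR414-TM1 call was lost without the 18S-richest libraries.

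In 5 low-oxygen and 5 ethylene genes the warmth difference was larger in white light than under shade. Of 15 tested low-oxygen genes 7 rose in white light, against 10.8% of all genes, and 0 passed under shade. The interaction passed with a more negative value for 5 of them, against 0.319% of all genes. PCO1 (AT5G15120), a plant cysteine oxidase that marks ERF-VII factors for decay when oxygen is present, measured 2.19, 2.35 and -0.49 in the 20 °C and 4.304, 4.92 and 5.80 in the 28 °C libraries of white light, against 2.86, 4.14 and 3.56 in the 20 °C and 3.25, 3.53 and 3.48 in the 28 °C libraries of shade. Its interaction was -3.76 ± 0.68 (limma adjusted p = 0.0054). HRA1, a brake on these factors, and LBD41 had interactions of -2.74 ± 0.46 and -2.43 ± 0.39, and the ERF-VII factors RAP2.3 and RAP2.2 of -1.67 ± 0.21 and -0.76 ± 0.14. A robust prior variance ended the calls of PCO1 and LBD41, and dropping the 18S-richest libraries ended that of RAP2.2.

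Of 22 ethylene genes 9 rose in white light, against 10.8% of all genes. The interaction passed with a more negative value under shade for 5 of them, against 0.319% of all genes. ETR2 (AT3G23150), an ethylene receptor, measured 4.05, 4.42 and 4.23 in the 20 °C and 5.70, 6.52 and 7.01 in the 28 °C libraries of white light, against 4.40, 4.99 and 4.92 in the 20 °C and 4.57, 5.06 and 5.02 in the 28 °C libraries of shade. The shade groups overlapped, and the interaction was -2.06 ± 0.31 (limma adjusted p = 7.3e-04). EBF1 and EBF2, F-box proteins that degrade the ethylene factor EIN3, had interactions of -1.06 ± 0.17 and -1.21 ± 0.21, and EIN2, the central signal carrier, of -0.75 ± 0.13. ACO4, an ethylene-forming enzyme, had an interaction of -0.59, a call lost without any of 10 of the 12 single libraries. Its call was also lost with medians subtracted and after quantile normalization. A robust prior variance ended the EBF2 call, and dropping the 18S-richest libraries ended those of EBF1, EIN2 and ACO4.

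Of the 34 cell-wall genes 4 passed the interaction with a more negative value under shade, against 0.319% of all genes. So did GASA6 of the gibberellin list. GASA6 measured 5.59, 5.56 and 5.55 in the 20 °C and 7.32, 7.81 and 7.59 in the 28 °C libraries of white light, against 7.38, 7.24 and 7.43 in the 20 °C and 8.02, 8.22 and 7.77 in the 28 °C libraries of shade. It rose under both lights, with an interaction of -1.35 ± 0.17 (limma adjusted p = 4.7e-05). EXPA8 had an interaction of -1.16 ± 0.16. EXPA3, XTH4 and XTH9 had interactions of -0.92, -0.70 and -0.70. Their calls were lost without any of 9, 7 and 3 of the 12 single libraries in this order. All 3 were also lost without the 18S-richest libraries. PORB (AT4G27440), a light-dependent protochlorophyllide reductase, and the desaturase ADS1 (AT1G06080) rose in white light, by 0.99 ± 0.11 and 2.15 ± 0.26, and had differences of -0.36 and -0.27 under shade that did not pass. Their interactions were -1.34 ± 0.16 and -2.42 ± 0.37. For every gene in this comparison of lights that is named with an interaction that passed, other than KIN1 and KIN2, the call was lost with a constant prior variance.

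**Figure D5:**
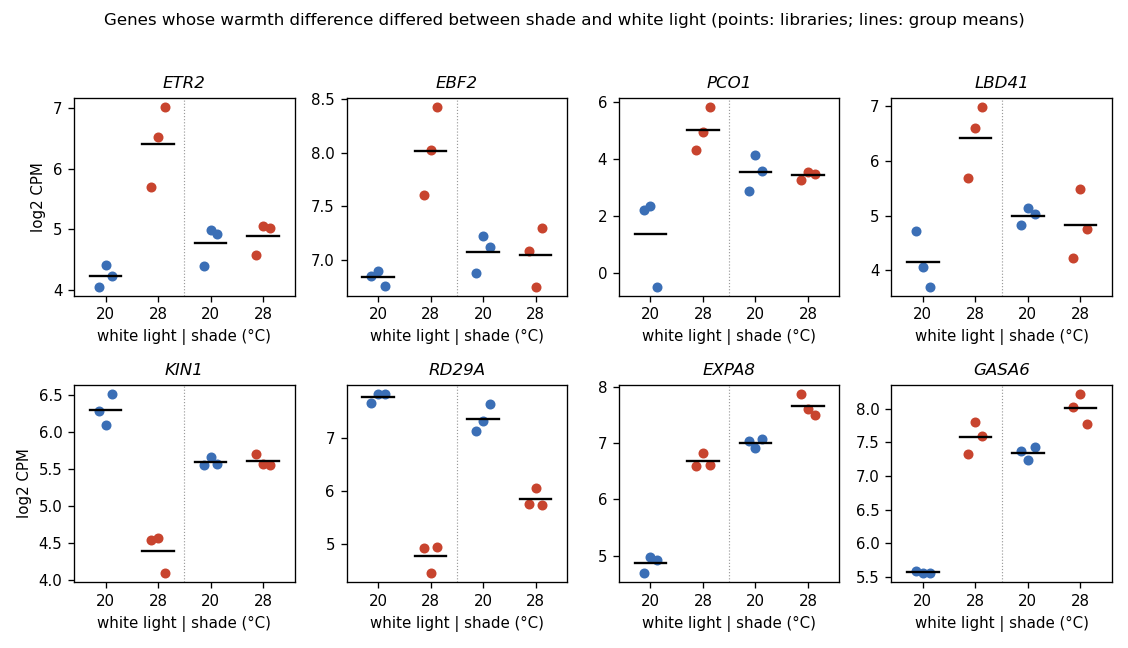
Log2 CPM of 8 genes in all 12 libraries, with white light left and shade right of the dotted line, blue for 20 °C and red for 28 °C, and lines at the group means. ETR2, EBF2, PCO1 and LBD41 differ with temperature in white light and overlap under shade, KIN1 falls in white light and overlaps under shade, and RD29A, EXPA8 and GASA6 move less under shade.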

How the data were processed

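RNA of whole seedlings was sequenced in 12 libraries, made per the labels' protocols from 3 µg of RNA by polyA selection and 12 PCR cycles and read as pairs; whether strand was kept is not stated. The authors deposited 1 table of log2 CPM values for 33602 genes. The submitters' processing notes name TopHat2 2.1.1, SAMtools 1.3, limma, R 4.0.2 and TAIR10 without their roles, and the read counter is not given in the sources used here. From the deposited log2 values, 0.5 read added, whole reads were recovered for 100% of values within 0.001 read, with totals of 3500325 to 4481869 per library. The table's ambient and heat columns were taken as 20 and 28 °C. Depth limits genes with few reads, and intervals cover the spread between libraries.

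Genes with log2 values of at least 0 in 3 libraries (21316) went into a limma 3.58.1 model (R 4.3.3) of 4 group means, a prior variance that follows the level, and Benjamini-Hochberg adjustment over all of them at 0.05. All 12 libraries shared 1 estimate of spread. On simulated data for warmth under shade, with 200 of 21316 genes changed, 2% of 1.5-fold, 61% of 2-fold and 99% of 3-fold changes were recovered. False calls were 0 of 4, 5 of 127 and 14 of 212 in this order. The changed genes were drawn only from those with more reads, and all genes were given the same spread beyond counting. The rates therefore do not hold for genes with few reads or a wider spread. The genes named were the 10 largest rises and falls with a shade mean of at least 1 and no overlap, the 4 smallest adjusted p of each of 40 lists, the 6 largest interactions each way and a set of known genes; others were named after their values were seen. Members and lists were chosen with earlier results of these data known. Motifs were read from RefSeq's TAIR10.1 (32835 IDs matched, 767 did not) with its own annotation, in a window chosen after seeing the data; overlap between motifs was not examined. Same-numbered replicates were checked for pairing and did not deviate together over all tested genes (correlations of -0.0297 to 0.0414 over 18 pairs). No block was used in the main model. Alternatives covered scaling, filter, prior variance, weights, the block, single libraries left out and libraries with most 18S reads left out.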

Additional observations from a re-analysis of the deposited data

Results flagged for a closer look

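The warmth difference under shade differed from that in white light by the interaction test (limma, adjusted p under 0.05) for each gene given here, as log2 values of shade minus white light. More positive under shade were KIN1 at 1.91, KIN2 at 1.63, RD29A at 1.48 and COR414-TM1 at 1.06 of the cold list. BAM3 was at 1.53, LHCB1.4 at 0.97, the clock gene RVE2 at 1.27, the chalcone synthase gene CHS at 0.85, the receptor-like kinase gene CRK18 at 1.66, AT2G43620 at 1.54 and AT1G78450 at 1.51.

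More negative were PCO1 at -3.76, HRA1 at -2.74, LBD41 at -2.43, RAP2.3 at -1.67 and RAP2.2 at -0.76 of the low-oxygen list. Of the ethylene list ETR2 was at -2.06, EBF2 at -1.21, EBF1 at -1.06, EIN2 at -0.75 and ACO4, an ethylene-forming enzyme, at -0.59. Growth genes were GASA6 at -1.35, EXPA8 at -1.16, EXPA3 at -0.92, XTH9 at -0.70 and XTH4 at -0.70. The remaining genes were ADS1 at -2.42, PORB at -1.34, PHYA at -0.81, SEN1 at -0.99, AT4G21870 at -0.81 and AT5G22580 at -3.003. The chloroplast genome genes ATCG00930 and ATCG01200 were both at -3.88, and ATCG00940 and ATCG01190 both at -3.46.

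With a constant prior variance all of these calls except those of KIN1 and KIN2 were lost. A robust prior variance ended those of PCO1, LBD41, EBF2, SEN1, AT2G43620, ATCG00930 and ATCG01200. Some calls were also lost when 1 library was left out. The numbers of the 12 libraries whose removal ended the call were 10 for ACO4, 9 for EXPA3 and AT4G21870, 8 for AT1G78450 and RVE2, 7 for XTH4, 6 for AT2G43620, CHS and SEN1, 5 for AT5G22580, CRK18, ATCG00930 and ATCG01200, 4 for PHYA and 3 for XTH9. ATCG00940 and ATCG01190 lost theirs without replicate 3 of white light at 28 °C. The cause of these differences was not tested.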

How the results depend on the processing

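The 892 calls of warmth under shade numbered 184 under a constant prior variance, 347 without the 18S-richest library of each group, and between 402 and 769 without 1 shade library (402 without replicate 2 of shade at 20 °C). The 467 rises were 107, 239 with medians subtracted, 157 without the 18S libraries and 201 to 423 without 1 library. The 425 falls were 77, 713, 190 and 201 to 401 in this order. Calls of at least 2-fold, 180, were 93 with a constant prior variance and 112 to 196 without 1 library. The 95 interaction calls were 6 with a constant prior variance, 42 without the 18S libraries and 59 to 155 without 1 library, and the 3333 calls in white light were 1950, 1665 and 2239 to 2896. With the replicate block, 974 genes passed (138 for the interaction and 3428 in white light), and with only the 6 shade libraries 795 passed. Same-numbered replicates did not deviate together over all tested genes, which cannot exclude a batch shared by some genes. Of 103 calls on named genes 40 held under every alternative, and none of these results reversed. Genes with few reads are limited by totals of 3500325 to 4481869 reads per library.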
